A study of Homo sapiens with 24 samples.

Results

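The features described here are 10 of the 61248 counted in each library, and they stand for genes of the ERK feedback circuit. They are the coding genes DUSP6, PHLDA1, ETV5, ETV4, SPRY4 and IER3, and 4 features annotated on the other strand of a coding member, ENSG00000274021, PHLDA1-AS1, ETV5-AS1 and IER3-AS1. They were picked by name, and with their day 14 difference between genotypes already known, so that difference and the day 14 levels behind it are given below as a description without a p-value. The cells were H7, an established human embryonic stem cell line. The groups were BRAT1 KO day 14, Control day 14, BRAT1 KO day 0 and Control day 0. Day 14 samples had been differentiated towards ventral neural progenitors, and day 0 samples were undifferentiated stem cells. Each genotype had 2 lines, each with 3 biological replicates lettered A to C on each day, which gives 6 libraries per group and 24 in all. The sources used here do not say how the lines were edited or whether each is 1 clone. BRAT1 is a partner of INTS11, the endonuclease of the Integrator complex that trims and terminates nascent RNA, and the series is named for factors that Integrator and the CPSF cleavage complex need.

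ERK is the last kinase of a cascade controlled by RAS, which FGF and other receptor tyrosine kinases switch on. Active ERK raises transcription of ETS family factors and also of its own inhibitors, so transcripts of this circuit are widely used as a readout of ERK output. In human stem cells FGF signalling helps maintain the undifferentiated state, and in the developing forebrain it acts in patterning and in progenitor maintenance.

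The libraries keep the strand of the RNA, and this bears on every member. Among 1843 pairs of an antisense feature and the coding gene it overlaps, 1233 (66.9%) had more counts under the antisense name. For most such pairs the counts under a name therefore fit reads of the other strand. ENSG00000274021 lies on the plus strand at chr12:89351015-89353271 (GRCh38, GENCODE release 29), and DUSP6 on the minus strand at chr12:89347232-89353271. They share 1875 exon bases, 436 of them in the DUSP6 coding part. PHLDA1-AS1, at chr12:76030494-76031378 on the plus strand, shares 553 exon bases with PHLDA1, at chr12:76025447-76033932 on the minus strand, and 524 of these are coding. IER3-AS1, at chr6:30742929-30743592 on the plus strand, shares 359 exon bases with the end of IER3, at chr6:30743199-30744554 on the minus strand, and none of them is coding. ETV5-AS1, at chr3:186079170-186080947, shares no exon base with ETV5 and runs against it inside the ETV5 gene body at chr3:186046308-186110318. SPRY4, at chr5:142310427-142326455, and ETV4, at chr17:43527844-43579620, both on the minus strand, have no member on their other strand.

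The next sequences are stretches in which the strand of a fragment alone decides which name it is counted under. The first opens the DUSP6 coding sequence, coding bases 1 to 120 of 1143 at chr12:89351920-89352039, and its capitals mark the start codon. The second is PHLDA1 coding bases 364 to 483 of 1203, at chr12:76031259-76031378, where the overlap with PHLDA1-AS1 begins, and it has no capitals. Both are written in the sense of the coding gene, from the minus strand of GRCh38, and come from the GENCODE transcripts.
DUSP6, shared with ENSG00000274021: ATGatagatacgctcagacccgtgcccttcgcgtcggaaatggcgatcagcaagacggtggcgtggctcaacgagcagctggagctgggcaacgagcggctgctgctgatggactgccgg
PHLDA1, shared with PHLDA1-AS1: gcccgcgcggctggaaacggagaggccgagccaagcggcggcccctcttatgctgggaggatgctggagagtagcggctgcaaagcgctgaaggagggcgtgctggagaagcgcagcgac

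**Figure D1:**
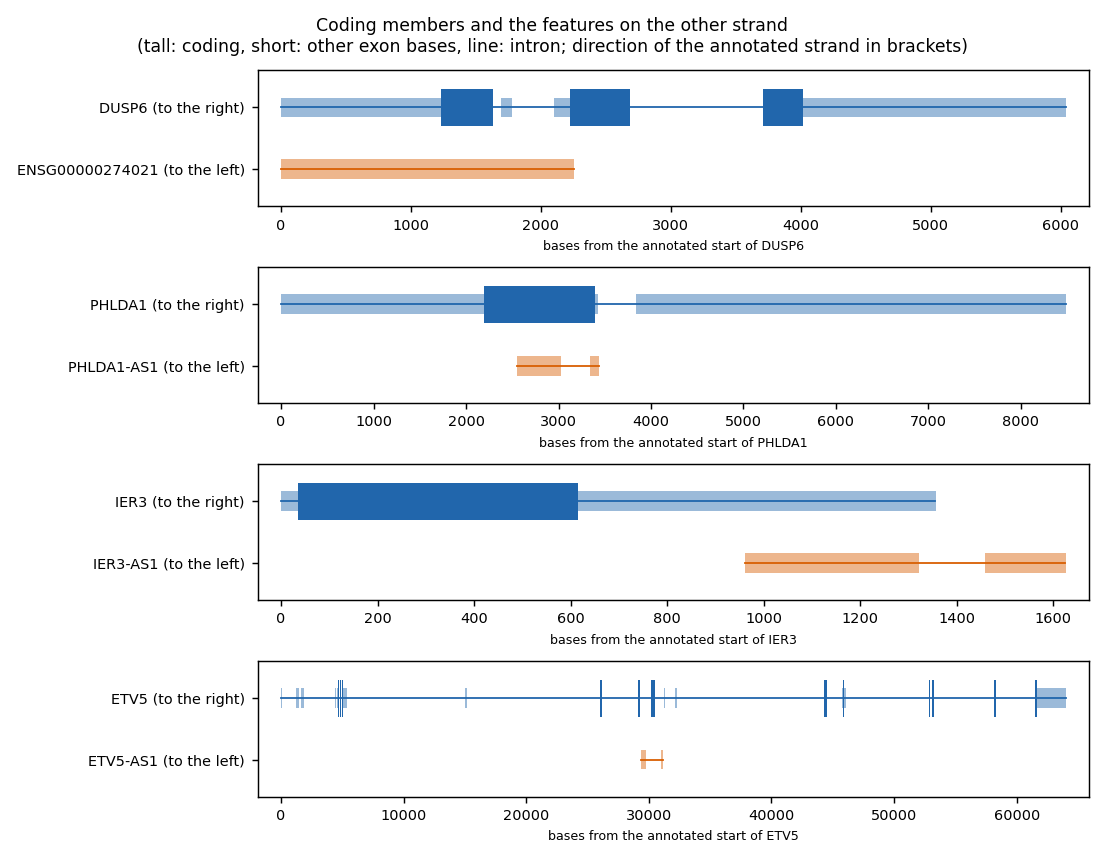
Exons of 4 coding members (blue) and of the features on their other strand (orange), drawn to scale against the distance in bases from the annotated start of the coding gene. ENSG00000274021 covers the start and first coding exon of DUSP6, PHLDA1-AS1 lies over the PHLDA1 coding part, IER3-AS1 over the end of IER3, and ETV5-AS1 in introns of ETV5.

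The libraries held 2688218 to 3726227 counts in BRAT1 KO day 14, 2228736 to 3682807 in Control day 14, 1425141 to 2143871 in BRAT1 KO day 0 and 1407832 to 2059467 in Control day 0. The feature named BRAT1 averaged 46.2 ± 38.0 CPM, a count scaled to the library's total, in knockout and 252 ± 45.9 in control at day 14 (SD, n = 6 each). Which strand's RNA it counts was not tested. At day 0 it had 0 to 10 counts in knockout libraries and 0 to 6 in control libraries, so the genotype could not be read from it there. Marker lists were summed under the genes' own names and under the features on their other strand, and the readings differed. The 8 pluripotency genes under their own names summed to 64.0 to 141 CPM in knockout and 58.3 to 113 in control at day 14, and to 33.0 to 153 in knockout and 46.2 to 122 in control at day 0. The 2 features opposite them (TCF19 opposite POU5F1 and LRRC2 opposite TDGF1, both coding genes too) summed to 0 to 1.88 in knockout and 0 to 1.29 in control at day 14, against 482 to 779 in knockout and 536 to 779 in control at day 0. The 10 neural progenitor genes under their own names summed to 589 to 1140 in knockout and 274 to 490 in control at day 14, and the 5 features opposite them to 8320 to 12000 in knockout and 11100 to 13900 in control. At day 0 these sums were 22.4 to 56.2 in knockout and 28.2 to 124 in control under their own names, and 295 to 1220 in knockout and 336 to 966 in control on the other strand. Most of the other-strand progenitor sum came from the VIM locus. At day 14 ENSG00000234961 averaged 5510 in knockout and 6890 in control, and VIM-AS1 4730 and 5650, both opposite VIM. ELP4, opposite PAX6 in the same sum, is a coding gene of its own. Among markers of other cell types at day 14, the 5 neuron genes summed to 65.8 to 197 in knockout and 20.2 to 55.9 in control. The 4 neural crest genes summed to 10.8 to 42.0 in knockout and 70.4 to 111 in control, and the 3 features opposite them to 33.6 to 56.9 in knockout and 63.3 to 94.2 in control. The 5 mesenchyme genes summed to 2.98 to 24.8 in knockout and 4.36 to 27.2 in control, and the 3 features opposite them to 92.3 to 131 in knockout and 269 to 384 in control. The 6 mesendoderm genes summed to 6.57 to 30.9 in knockout and 6.28 to 19.7 in control, most of it FOXA2 (mean 14.4 in knockout and 9.9 in control), and SOX17 was at 0 in every day 14 library. Knockout and control sums at day 14 did not overlap for progenitor and neuron genes under their own names, which were higher in knockout, nor for neural crest genes under either reading and the features opposite mesenchyme genes, which were lower in knockout. Within the neural crest sums, SOX10 (mean 9.72 in knockout and 69.4 in control), TFAP2B, FOXD3 and FOXD3-AS1 (0.915 and 48.1) were lower in knockout. TFAP2A (15.2 and 12.6), TFAP2A-AS1 (6.25 and 4.53) and TFAP2A-AS2 (37.4 and 27.8) were higher. FAS, in the sum opposite mesenchyme genes, is a coding gene of its own. The part of these sums in the members' differences was not tested. The median of counts under a coding name as a percent of those under its opposite feature, over 715 pairs without members, was 7.10 ± 1.64 in knockout and 4.84 ± 0.705 in control at day 14 (SD, n = 6 each), and its part was tested only as a covariate.

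DUSP6 encodes the cytoplasmic phosphatase that removes phosphate from ERK. At day 14 counts under both names of the locus were low in knockout cells. Under the name ENSG00000274021, which holds most counts of the locus, knockout libraries had a lowest value of 14.4, a median of 26.9 and a highest value of 43.0 CPM, and control libraries 147, 205 and 238. The groups did not overlap. Under the name DUSP6, knockout libraries had 0.744, 2.05 and 3.76 CPM at the lowest, median and highest, and control libraries 13.8, 18.4 and 25. These groups did not overlap either. Summed DUSP6 counts were 8.22% of the ENSG00000274021 counts in knockouts and 9.86% in controls. Over 715 pairs without members, the median of this percent averaged 7.10 in knockouts and 4.84 in controls. How far the 2 names count the same RNA was not tested. The log2 fold change, knockout over control, was −2.83 (SE 0.21) for ENSG00000274021 and −3.08 (SE 0.38) for DUSP6. Setting each knockout line against each control line, the ratio of means was 0.108 to 0.132 for DUSP6 and 0.088 to 0.219 for ENSG00000274021, so all 4 pairings of lines were lower. Fewer cells that use the locus and less RNA per cell cannot be told apart in these bulk libraries.

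PHLDA1 encodes a pleckstrin homology-like domain protein whose transcript follows ERK activity closely. PHLDA1-AS1, the feature over its coding part, repeated the picture at the DUSP6 locus. Knockout libraries at day 14 had 19.0, 28.2 and 38.8 CPM at the lowest, median and highest, and control libraries 180, 214 and 275. The groups did not overlap, and the log2 fold change was −2.97 (SE 0.16). Pairings of lines gave ratios of 0.101 to 0.164. The name PHLDA1 itself held 0 to 21 counts per knockout library and 1 to 15 per control library, did not pass the filter on low counts, and overlapped between the groups. A second feature on that strand, PHLDA1-DT, lies over the part of PHLDA1 before its coding sequence and was looked at after its values were seen. It averaged 0.711 ± 0.781 CPM in knockout and 2.44 ± 1.84 in control at day 14 (SD, n = 6 each), with overlapping groups.

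ETV5 and ETV4 encode PEA3 type ETS transcription factors, which carry the ERK signal to chromatin. ETV5-AS1 had the largest log2 fold change of the members tested, −4.92 (SE 0.80), and rested on few counts. It had 4 counts in knockout line 1 replicate A and 0 in the other 5 knockout libraries at day 14, against 14 to 41 counts in control libraries. The groups did not overlap. As a ratio of summed counts corrected for depth, knockout over control was 0.0269, with an exact 95% interval of 0.00724 to 0.0703 that covers counting error only. Without knockout line 1 replicate A every remaining knockout library was at 0, and the fitted log2 fold change was −7.71. ETV5 under its own name had 0 to 14 counts in knockout libraries and 2 to 27 in control libraries at day 14 and did not pass the filter. Its summed ratio was 0.373 (0.216 to 0.624), and the groups overlapped, with knockout line 2 holding all 21 counts of the knockout group.

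ETV4 was the only member tested whose log2 fold change at day 14 was positive, 0.42 (SE 0.32). Knockout libraries had 8.40, 13.8 and 18.8 CPM at the lowest, median and highest, and control libraries 7.10, 10.7 and 12.7. The groups overlapped. Knockout line 1 averaged 17.9 ± 1.03 and knockout line 2 9.44 ± 1.24 (SD, n = 3 each), and without knockout line 1 the log2 fold change was −0.18. DHX8, an RNA helicase gene on the other strand, was looked at after its values were seen. It is annotated to span ETV4 but shares only 68 exon bases with it. DHX8 averaged 3.96 ± 2.06 CPM in knockout and 55.1 ± 14.9 in control at day 14, and 520 ± 181 in knockout and 433 ± 164 in control at day 0 (SD, n = 6 each). Which of the 2 genes those counts come from was not tested.

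SPRY4 encodes a sprouty protein, an inhibitor that acts between the receptor and ERK. At day 14 it had 6 counts in knockout line 1 replicate C and 0 in the other 5 knockout libraries. Control line 1 had 52, 45 and 27 counts, and control line 2 had 11, 14 and 7. The groups did not overlap, and the summed ratio, knockout over control, was 0.0404 (exact 95% interval 0.0146 to 0.0898). That interval covers counting error only, and leaves out the spread between libraries and between lines. SPRY4 did not pass the filter on low counts, so it has no fitted fold change. SPRY4-AS1, which lies over the start of SPRY4 without a shared exon base, had 0 to 11 counts in knockout libraries and 0 to 5 in control libraries.

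IER3 encodes an ERK substrate made early after stimulation and linked to cell survival. Its locus differed from those of DUSP6 and PHLDA1 at day 14. Under IER3, knockout libraries had 20.5, 25.8 and 35.0 CPM at the lowest, median and highest, and control libraries 20.9, 32.6 and 39.5. These groups overlapped almost fully, and the log2 fold change was −0.22 (SE 0.23). Under IER3-AS1, knockout libraries had 0.730, 2.35 and 4.77 CPM, and control libraries 3.55, 5.32 and 12.1. The log2 fold change was −1.24 (SE 0.54), the groups overlapped, and the highest control value came from line 2 replicate C alone.

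**Figure D2:**
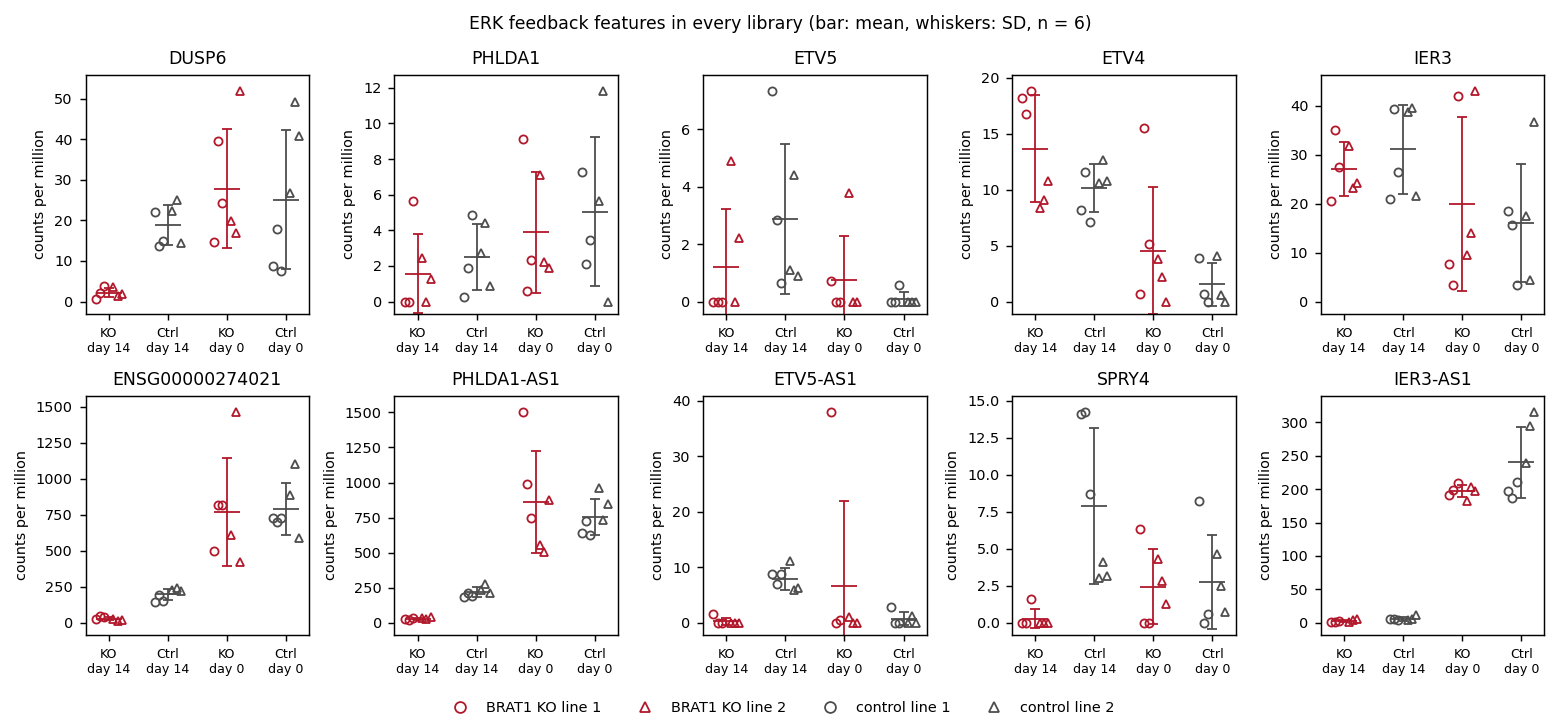
CPM of each member in each of 24 libraries, BRAT1 KO in red and control in grey, circles for line 1 and triangles for line 2, with the mean and SD of each group (n = 6), where whiskers that run below 0 are cut at the axis. At day 14 the knockout libraries lie below all control libraries for DUSP6, ENSG00000274021, PHLDA1-AS1, ETV5-AS1 and SPRY4, and overlap them for the other 5.

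At day 14, 7 of the 10 members passed the filter on low counts. By edgeR's quasi-likelihood test with a Benjamini-Hochberg adjusted p under 0.05 over all features, 4 of the 7 were lower in knockout (DUSP6, ENSG00000274021, PHLDA1-AS1 and ETV5-AS1) and 0 were higher. Of the 11408 features tested, 21.7% were called, 10.7% lower and 11.0% higher, and the median log2 fold change of all was 0.07. Knockout and control libraries did not overlap, with knockout lower, for those 4 members and for SPRY4, against 6.00% of all features tested. SPRY4 did not pass the filter, so it is outside that share. The members were chosen with this contrast known, so nothing is read from either count.

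At day 0, in libraries that the choice of members did not rest on, no difference was detected. Of 4832 features tested, 0 were called (0.00%) by edgeR's quasi-likelihood test, with 99 at an unadjusted p under 0.05. DESeq2 also called 0, with 163 at an unadjusted p under 0.05. ENSG00000274021 had 420, 712 and 1460 CPM at the lowest, median and highest in knockout stem cells, and 586, 729 and 1100 in control stem cells. PHLDA1-AS1 had 501, 808 and 1500 in knockout, and 624, 729 and 961 in control. The groups overlapped in both. Log2 fold changes, knockout over control, were −0.07 (SE 0.27) for ENSG00000274021, 0.17 (SE 0.25) for PHLDA1-AS1 and 0.12 (SE 0.59) for DUSP6. They were 0.27 (SE 0.76) for IER3 and −0.32 (SE 0.22) for IER3-AS1, and edgeR's adjusted p was 1.0 for each of the 5. The value for DUSP6 averages 2 unlike control lines, with 26.7 to 49.1 CPM in line 2 and 7.43 to 17.8 in line 1. It was 1.22 without control line 2 and −0.47 without control line 1. Control lines did not overlap for DUSP6, PHLDA1-AS1 and IER3-AS1 at day 0, nor for 7.39% of all features tested there. IER3-AS1 averaged 198 ± 9.2 CPM in knockout and 241 ± 53.3 in control (SD, n = 6 each). PHLDA1, ETV5, ETV5-AS1, ETV4 and SPRY4 did not pass the filter at day 0. ETV4 had 0 to 27 counts in knockout libraries and 0 to 8 in control libraries, and SPRY4 had 0 to 9 in knockout and 0 to 17 in control.

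**Figure D3:**
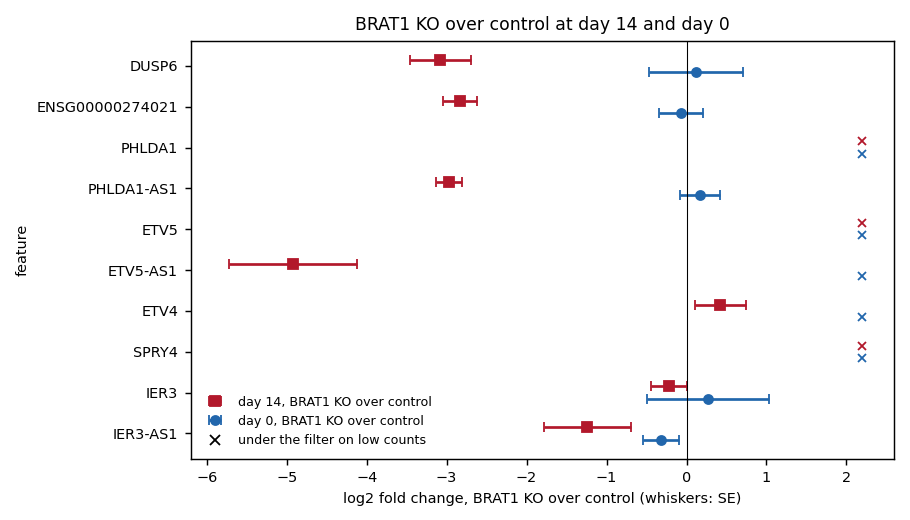
Log2 fold change, BRAT1 KO over control, of each member at day 14 (red squares) and day 0 (blue circles), with its SE. Day 14 values run from −4.92 to 0.42 and day 0 values from −0.32 to 0.27, and a cross marks a member under the filter on low counts.

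Day 14 was also set against day 0 within each genotype, and in controls 3 of the 4 members on the other strand of a coding member fell. In controls at day 14 against day 0, the median log2 fold change of all 10971 features tested was 0.60 with TMM scaling and 0.83 with RLE scaling, so values are also given relative to it. Here 9 of the 10 members passed the filter, 3 fell and 0 rose at an adjusted p under 0.05, against 14.4% of all features lower and 28.4% higher (42.8% called). This contrast uses the same day 14 control libraries as the one the members were chosen from. ENSG00000274021 averaged 196 ± 40.6 CPM at day 14 and 788 ± 180 at day 0 in controls (SD, n = 6 each), a log2 fold change of −2.54 (SE 0.27, edgeR adjusted p = 5.7e-09), or −3.14 relative to the median. PHLDA1-AS1 averaged 218 ± 34.0 at day 14 and 754 ± 129 at day 0, a log2 fold change of −2.32 (SE 0.21, edgeR adjusted p = 2.8e-10), or −2.92 relative to the median. IER3-AS1 fell furthest, to 5.97 ± 3.13 at day 14, against 241 ± 53.3 at day 0, a log2 fold change of −5.85 (SE 0.34, edgeR adjusted p = 1.02e-14), or −6.45 relative to the median. In all 3 the 6 day 14 libraries lay below the 6 day 0 libraries, as they did for 4.55% of all features tested.

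The other 6 members tested did not pass the threshold in controls. DUSP6 had a log2 fold change, day 14 over day 0, of −0.90 (SE 0.50, edgeR adjusted p = 0.15). ETV4 had 2.01 (SE 0.86, edgeR adjusted p = 0.057) and ETV5-AS1 had 2.77 (SE 1.28, edgeR adjusted p = 0.0803). Both non-calls depended on the fit. Both features passed the filter on low counts mainly through day 14 libraries, where they were higher, so nothing is read from their p-values. ETV4 passed in 5 of 6 alternatives, with an adjusted p of 0.0034 to 0.0967, and ETV5-AS1 in 2 of 5, at 0.0112 with the replicate block and 0.0103 with only the 12 control libraries. Every control library at day 14 held more ETV5-AS1, ETV5 and ETV4 than any at day 0, as was so for 31.3% of all features tested. ETV5 did not pass the filter in this contrast, so it is outside that share. ETV5-AS1 had 14 to 41 counts at day 14 and 0 to 6 at day 0, and ETV5 had 2 to 27 at day 14 and 0 to 1 at day 0. SPRY4 had 7 to 52 counts per control library at day 14 and 0 to 17 at day 0, with overlapping groups.

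In knockouts the day 14 against day 0 differences are a description, since their day 14 libraries were used in choosing the members. ENSG00000274021 averaged 27.9 ± 10.8 CPM at day 14 and 771 ± 376 at day 0 (SD, n = 6 each), a log2 fold change of −5.31 (SE 0.31). PHLDA1-AS1 averaged 28.2 ± 6.85 at day 14 and 860 ± 364 at day 0, with −5.44 (SE 0.25), and DUSP6 2.23 ± 1.20 at day 14 and 27.8 ± 14.7 at day 0, with −4.15 (SE 0.58). IER3-AS1 averaged 2.52 ± 1.48 at day 14 and 198 ± 9.2 at day 0, with −6.77 (SE 0.36). The median of all features in this contrast was 0.65 with TMM and 1.04 with RLE scaling, and 46.3% were called. ETV5-AS1 had a log2 fold change of −4.90 (SE 1.39), but 54 of its 57 day 0 counts in knockouts came from line 1 replicate A. ETV4 averaged 13.7 ± 4.76 at day 14 and 4.56 ± 5.68 at day 0 in knockouts, and IER3 27.0 ± 5.53 at day 14 and 19.9 ± 17.8 at day 0, both with overlapping groups.

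The order of the groups by mean level differed between loci. For DUSP6, ENSG00000274021 and PHLDA1-AS1, the day 14 knockouts were lowest and did not overlap any other group. The day 14 controls came next, below both day 0 groups for ENSG00000274021 and PHLDA1-AS1, and within their spread for DUSP6. The day 0 genotypes overlapped for all 3. IER3-AS1 had both day 14 groups far below both day 0 groups. For ETV5-AS1 the median was 0 CPM in knockouts and 7.81 in controls at day 14, and 0.233 in knockouts and 0 in controls at day 0. SPRY4 had a median of 0 in knockouts and 6.42 in controls at day 14, and 2.03 in knockouts and 1.59 in controls at day 0.

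Between lines of 1 genotype no member passed the threshold. In knockouts at day 14, line 2 against line 1, 4 members were tested and 0 were called, against 0.402% of 12442 features. ENSG00000274021 had a log2 fold change of −0.86 (SE 0.36, edgeR adjusted p = 0.468), with 20.2 ± 6.54 CPM in line 2 and 35.6 ± 8.45 in line 1 (SD, n = 3 each). ETV4 had −0.96 (SE 0.46, edgeR adjusted p = 0.562), with 8.40 to 10.8 CPM in line 2 and 16.8 to 18.8 in line 1. It was the only member tested whose knockout lines did not overlap at day 14, against 15.2% of all features. PHLDA1-AS1 had 0.36 (SE 0.35, edgeR adjusted p = 0.856). In controls at day 14, 8 members were tested and 0 were called, against 0.244% of 11479 features. SPRY4 averaged 3.42 ± 0.611 CPM in line 2 and 12.3 ± 3.13 in line 1 (SD, n = 3 each), a log2 fold change of −1.85 (SE 0.50, edgeR adjusted p = 0.266). ENSG00000274021 had 0.49 (SE 0.15, edgeR adjusted p = 0.447), with 219 to 238 CPM in line 2 and 147 to 192 in line 1. The control lines did not overlap for SPRY4 and ENSG00000274021, 2 of the 8 members, against 11.9% of all features. BRAT1 counts differed between the knockout lines at day 14, at 80.4 ± 8.18 CPM in line 2 and 11.9 ± 4.67 in line 1.

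The share of counts under a coding name against its opposite feature was followed for the 3 pairs with shared exons, as a ratio of counts and not of levels per length. Over 715 pairs without members, the median of this percent averaged 7.10 in knockouts and 4.84 in controls at day 14. At day 0, over those with counts, it averaged 0.53 in knockouts and 0.37 in controls. Its part in the shares below was not tested. Summed over libraries, DUSP6 held 8.22% of the ENSG00000274021 count in knockouts and 9.86% in controls at day 14, and 3.5% in knockouts and 3.04% in controls at day 0. PHLDA1 held 6.12% of the PHLDA1-AS1 count in knockouts and 1.17% in controls at day 14, and 0.461% in knockouts and 0.702% in controls at day 0. The knockout value at day 14 rests on 32 PHLDA1 counts, 21 of them from line 1 replicate C, and 3 of its libraries had none. IER3 behaved otherwise. It held more counts than IER3-AS1 in 6 of 6 knockout and 6 of 6 control libraries at day 14, and in 0 of 6 of either genotype at day 0. Its summed share was 1030% in knockouts and 563% in controls at day 14, against 10.3% in knockouts and 6.58% in controls at day 0. IER3 itself averaged 27.0 ± 5.53 CPM in knockouts and 31.1 ± 9.08 in controls at day 14, and 19.9 ± 17.8 in knockouts and 16 ± 12.1 in controls at day 0 (SD, n = 6 each), with overlapping groups.

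**Figure D4:**
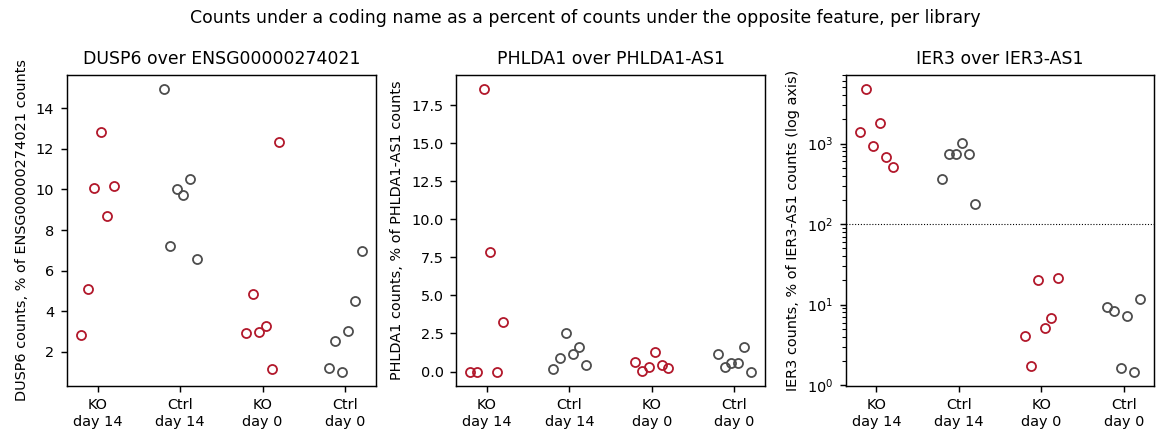
Counts under DUSP6, PHLDA1 and IER3 as a percent of counts under the feature on the other strand, 1 point per library, BRAT1 KO in red and control in grey; the IER3 axis is logarithmic and its dotted line marks equal counts. DUSP6 and PHLDA1 lie far below their opposite feature on both days, and IER3 lies above IER3-AS1 in all 12 day 14 libraries and below it in all 12 day 0 libraries.

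Likeness was measured as Pearson's r of log2(CPM + 1) over the 12 day 14 libraries, among 11408 features. It is a description, since most of the spread over these libraries is between genotypes. The features most like ENSG00000274021 were ENSG00000279069 (r = 0.989), ENSG00000228703 opposite AMPD2 (0.969), DNASE1 (0.968), HAS2-AS1 (0.966) and ENSG00000266677 opposite ALKBH5 (0.966). ENSG00000279069 shares exon bases with SRSF1 on the other strand, the coding gene DNASE1 with TRAP1, and HAS2-AS1 with HAS2. Which strand's RNA these features count was not tested. Among members, DUSP6 ranked 36 (r = 0.947), PHLDA1-AS1 46 (r = 0.939) and ETV5-AS1 81 (r = 0.926). IER3-AS1 (r = 0.574), IER3 (0.402) and ETV4 (−0.214) were far less alike. The features most like ETV5-AS1 were ENSG00000260798 opposite CDH1 (0.978), RUSC1-AS1 (0.970), ZBTB1 (0.969), ENSG00000256364 opposite MLEC (0.962) and GPR75 (0.959). RUSC1-AS1 shares exon bases with FDPS and RUSC1 on the other strand, and the coding gene ZBTB1 with ZBTB25.

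Start-site windows from RefSeq, 250 bases before the start and a short stretch after it, were searched on both strands for the letters of 4 motifs. No window was available for ETV4, ETV5, IER3 and ENSG00000274021, so these members were not searched. The windows of DUSP6, PHLDA1, PHLDA1-AS1, ETV5-AS1, SPRY4 and IER3-AS1 held 0 matches to TGAATGAA or TGAATGGA, which the ERK-controlled repressor CIC binds, or to the ETS site CCGGAAGT. They also held 0 matches to the AP-1 letters TGANTCA and to the cAMP response element TGACGTCA. Of 35116 windows in the table, 2.6%, 4.1%, 7.7% and 1.8% held these motifs in that order. The short ETS core GGAA, which overlaps the ETS site, was in all 6 windows and in 95.5% of all.

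The rest of the pathway was read from lists chosen with earlier results of these data known, for knockout against control at day 14, and leaving members out. The counts stand beside 21.7% of all features called, 10.7% lower and 11.0% higher, and no list was tested against it. Of FGF ligands and receptors under their own names 10 were tested, of which 2 rose and 1 fell, with a median log2 fold change of 0.31 against 0.07 for all features. FGFR2, a receptor of neural and epithelial FGF signals, averaged 9.44 ± 4.35 CPM in knockout and 1.76 ± 1.87 in control (SD, n = 6 each; log2 fold change 2.42, SE 0.61, edgeR adjusted p = 0.00497). FGF14, an intracellular FGF family member that binds sodium channels, had a log2 fold change of 2.07 (SE 0.46, edgeR adjusted p = 0.0017). Control libraries held 0 to 4.84 CPM of FGFR2 and 1.35 to 3.53 of FGF14. FGFR2 and FGF14 passed the filter on low counts mainly through knockout libraries, where they were higher, so nothing is read from their p-values. FGFRL1, a receptor without a kinase domain, had −1.55 (SE 0.40, edgeR adjusted p = 0.00648). Of 7 features opposite these genes, 2 rose (ITGBL1 and ENSG00000276012, both opposite FGF14) and 2 fell (ENSG00000255201 opposite FGFR1, and EGFR-AS1). ITGBL1 is a coding gene of its own, so its counts cannot be assigned to FGF14.

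In the adaptor and kinase list 15 were tested under their own names, 1 rose and 0 fell, with a median of 0.09. MAP2K1, which encodes the kinase MEK1, averaged 89.0 ± 16.7 CPM in knockout and 48.1 ± 7.12 in control (SD, n = 6 each; log2 fold change 0.88, SE 0.17, edgeR adjusted p = 0.000509). None of the 4 features opposite cascade genes was called. Of the other negative feedback genes, 9 were tested under their own names, 0 rose and only NF1 fell, with a median of −0.14. NF1 encodes a RAS GTPase activator and had −0.72 (SE 0.24, edgeR adjusted p = 0.0342). Of 4 opposite features 2 fell, SLC25A26 opposite LRIG1 (−1.18, SE 0.11, edgeR adjusted p = 7.44e-09), and MIR4733HG opposite NF1 (−1.11, SE 0.38, edgeR adjusted p = 0.0383). SLC25A26 is a coding gene of its own, so its counts cannot be assigned to LRIG1.

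Of the 5 other genes of an ERK signature, SPRY2, DUSP4, CCND1, EPHA2 and EPHA4, 4 were tested under their own names and none was called, with a median of −0.10. The feature opposite the cyclin gene CCND1, LTO1, averaged 162 ± 27.2 CPM in knockout and 433 ± 25.7 in control (SD, n = 6 each). The groups did not overlap, and LTO1 had −1.43 on the log2 scale (SE 0.13, edgeR adjusted p = 2.88e-09), but it is a coding gene too. Among 11 ERK target genes tested under their own names, only ELK4, an ETS factor, rose (1.11, SE 0.36, edgeR adjusted p = 0.0269), and the median was 0.41. Of 4 opposite features, LTO1 and ENSG00000258177, opposite the ETS factor gene ELK3 at chr12:96222797-96223973, fell. ENSG00000258177 averaged 7.39 ± 2.61 in knockout and 41.6 ± 7.35 in control (log2 fold change −2.50, SE 0.26, edgeR adjusted p = 5.81e-08). Of 7 other immediate early genes tested, CCN2 rose (1.49, SE 0.42, edgeR adjusted p = 0.0109), and ZFP36 (−1.57, SE 0.46, edgeR adjusted p = 0.0147) and EGR2 (−2.59, SE 0.85, edgeR adjusted p = 0.0294) fell. EGR2 averaged 0.805 ± 1.97 CPM in knockout and 5.26 ± 2.44 in control (SD, n = 6 each). It passed the filter on low counts mainly through control libraries, so nothing is read from its p-value. Of 3 opposite features NR4A1AS fell (−1.92, SE 0.18, edgeR adjusted p = 1.14e-08), as did ENSG00000267598 opposite IER2 (−0.82, SE 0.12, edgeR adjusted p = 1.74e-05).

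Of these 19 list features, LTO1, SLC25A26, ENSG00000258177, NR4A1AS and ENSG00000267598 passed the threshold in all 24 alternatives, and the other 14 missed it in at least 1. With all 24 libraries in 1 fit, 13 of the 19 missed it, and adjusted p was 0.371 for FGF14, 0.335 for FGFR2, 0.608 for FGFRL1 and 0.263 for MAP2K1. Counts summed per line, which make the line the unit, gave an edgeR adjusted p of 0.0551 for MAP2K1, 0.0571 for NF1 and 0.0545 for CCN2. In that fit it was 0.0778 for EGFR-AS1, 0.162 for ELK4 and 0.176 for EGR2, so these features missed the threshold too. Leaving out 1 line lost the call for 10, among them FGFR2 (0.0586 without control line 2), FGFRL1 (0.0505 without control line 2) and EGFR-AS1 (0.243 without control line 2). Leaving out 1 library lost the call for 5. ZFP36 had an adjusted p of 0.114 without control line 1 replicate A. NF1 had 0.054 to 0.0679 without any 1 of control line 1 C, control line 2 C, knockout line 1 A or C, or knockout line 2 B. MIR4733HG had 0.0512 to 0.081 without any 1 of control line 1 A or B, control line 2 A or B, knockout line 1 B or knockout line 2 A. ELK4 had 0.0573 to 0.0864 without any 1 of control line 1 C, control line 2 B or C, knockout line 1 B or knockout line 2 B. EGR2 had 0.0508 to 0.0739 without any 1 of control line 1 B or C, knockout line 1 A or B, or knockout line 2 A, B or C.

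**Figure D5:**
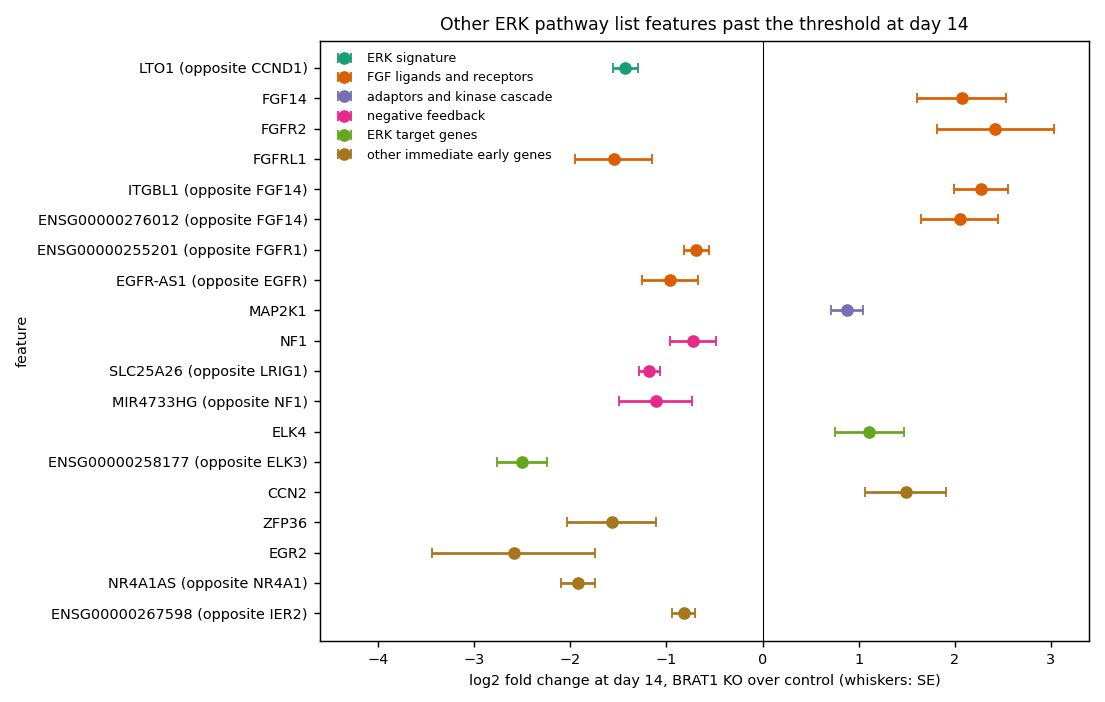
Log2 fold change at day 14, BRAT1 KO over control, with its SE, for 19 ERK pathway list features that passed the threshold and are not members, coloured by list. Of the 10 features read on the other strand of a list gene, 8 lie below 0, and of the 9 read under their own names, 4 lie below 0. The share below 0 among all called features of either reading was not computed, so nothing is read from these counts.

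At day 0 none of these lists had a feature past the threshold, with 0 to 4 tested in each under either reading. None of the 4832 features that passed the filter was called in that fit, while 13 were called with no filter and 116 with all 24 libraries in 1 fit.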

How the data were processed

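Poly(A) RNA from Trizol extracts of 24 H7 samples was made into strand-keeping Click-Seq libraries, per the labels' protocols. The authors deposited raw counts of reads per feature for each library. Per the submitters' processing notes the tools were bcl2fastq 2.20.0, STAR 2.7.9a, featureCounts (Subread 2.0.1), DESeq2 1.34.0 and R 3.5.1, with GRCh38. The sources used here name neither the annotation release nor the strand setting of the counting, and positions come from GENCODE release 29, matched by name for 56994 features.

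Counts were fitted with edgeR 4.0.16 (R 4.3.3) using filterByExpr, TMM scaling and the robust quasi-likelihood F test, with Benjamini-Hochberg adjustment over all features. A genotype was compared within each day and line 2 with line 1 within each genotype, each fit using only the libraries compared. Days were compared in 1 fit of 24 libraries. Line was not in the model, so p-values treat the 3 replicates of a line as independent. SE is the size of the log2 fold change divided by the root of F. CPM (counts scaled to the library) uses each library's total. Intervals cover counting error only. The steps were tested on simulated data. Alternatives included DESeq2 1.42.0. Members, gene lists, motifs and the rule for named genes (all members, and up to 4 called features per list and direction, and the 5 features most alike) were chosen with earlier results of these data known. 1 gene of the adaptor and kinase list is not reported here and was left out of its counts.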

Additional observations from a re-analysis of the deposited data

Results flagged for a closer look

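In 7 of the 40 groups of 6 libraries tested (10 members in 4 groups), 1 library lay further from the rest than Dixon's 95% limit allows for 6 values. Chance flags about 1 in 20 such groups where values are normally spread, and most of these hold few counts. Where all other libraries of a group are at 0, any count is flagged whatever its size. Nothing is therefore read from the number flagged.

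ETV5-AS1 in BRAT1 KO day 0 line 1 replicate A stood at 37.9 CPM (54 counts), while the other 5 libraries of that group lay between 0 and 0.95. At day 14 ETV5-AS1 in BRAT1 KO line 1 replicate A was at 1.49 (4 counts), and the other 5 were at 0. ETV5 was at 3.8 (8 counts) in BRAT1 KO day 0 line 2 replicate A, against 0 to 0.702 in the others. In Control day 0 line 1 replicate C it was at 0.572, from a single read, with the others at 0. ETV4 in BRAT1 KO day 0 line 1 replicate B was at 15.5 (27 counts), against 0 to 5.13. SPRY4 in BRAT1 KO day 14 line 1 replicate C was at 1.61 (6 counts), with the others at 0. IER3-AS1 in Control day 14 line 2 replicate C was at 12.1 (27 counts), against 3.55 to 5.70 in the other 5. The cause was not tested for any of these.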

How the results depend on the processing

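At day 14, knockout over control, the log2 fold changes of DUSP6 (−3.69 to −2.95), ENSG00000274021 (−3.37 to −2.48), PHLDA1-AS1 (−3.20 to −2.85), ETV5-AS1 (−7.71 to −3.86), IER3-AS1 (−1.78 to −0.89) and IER3 (−0.41 to −0.05) kept their sign in all 24 alternatives, and ETV4 ranged from −0.18 to 0.81. The count of features called at day 14 was 2474, and 1552 without control line 1, 1266 without control line 2, 241 with all 24 libraries in 1 fit and 1389 with the opposite-strand percent as a covariate. Leaving out 1 library gave 2113 to 2551. At day 0 the count was 0, and 13 with no filter on low counts, 1 without control line 1, 1 with counts summed per line and 116 with all 24 libraries in 1 fit. Between knockout lines it was 50, and 145 with DESeq2, 129 with no filter and 22 to 140 leaving out 1 library. Between control lines it was 28, and 86 with no filter and 21 to 57 leaving out 1 library. For day 14 against day 0 in knockouts it was 5077, and 8739 with no filter.

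Uncalled day 0 values of members changed sign: DUSP6 to −0.47 without control line 1 (and to 1.22, with no change of sign, without control line 2), ENSG00000274021 to 0.05 without knockout line 1 and 0.04 without control line 2, and PHLDA1-AS1 to −0.25 without knockout line 1. Between lines, leaving out 1 library gave −0.24 to 0.13 for IER3 in knockouts, and −0.44 to 0.15 for ETV5-AS1 and −0.14 to 0.81 for IER3-AS1 in controls. In controls, day 14 over day 0, ETV4 passed the threshold in 5 of 6 alternatives (adjusted p 0.0034 to 0.0967) and ETV5-AS1 in 2 of 5 (0.0103 to 0.0739). Nothing is read from these p-values, since both features passed the filter mainly through day 14 libraries. The cause was not tested for any of these.

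Replicate letters did not pair the day 14 libraries, and pairing at day 0 was not tested. At day 14, deviations of same-letter libraries had correlations of −0.223 to 0.133 (median −0.011, 18 pairs). Those of other letters had −0.109 to 0.177 (median 0.009, 36 pairs), and 3 of 12 libraries correlated best with their own letter. With the replicate block the counts called were 2256 (day 14) and 0 (day 0) for genotype, against 2474 and 0 without it. Between lines they were 184 in knockouts and 40 in controls, against 50 and 28 without it. For day they were 4877 in controls and 5279 in knockouts, against 4699 and 5077 without it. IER3 at day 0 became −0.10 with the replicate block.

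Depth limits what can be said of PHLDA1, ETV5, ETV5-AS1 and SPRY4, which had at most 54 counts in any library.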
